A study of Danio rerio with 12 samples.

Results

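Described here are 144 genes of the zebrafish caudal fin whose transcripts were low at 2 days post amputation (dpa) and high in the uncut fin, at 3 dpa and at 10 dpa. They were chosen from 33737 Ensembl gene identifiers by their measured values. Counts were scaled to a column total of 1000000 in each library (CPM), and 1 CPM was added to each stage mean. The largest ratio between neighbouring stage means split the 4 stages into a high and a low set. With 2 dpa alone in the low set there were 1514 genes, and for 444 of them every high library lay above every 2 dpa library. Of these 444, 256 had at least 5 CPM on average at each high stage, and the 150 of largest ratio were taken. A list of 14 symbols was left out, of which 6 stood among the 150, and this gave the 144 genes. The ratio that chose them, the lowest high stage mean plus 1 over the 2 dpa mean plus 1, is called the dip ratio below. Because the 2 dpa values chose the genes, their levels at 2 dpa are given as a description, with no test. The rule limited how far the levels at 0, 3 and 10 dpa could lie apart but set no order among them, and these 3 stages are compared by test. Values of single libraries follow in the order of replicates 1, 2 and 3, and log2 changes are edgeR estimates ± SE.

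The fins came from adult zebrafish (Danio rerio, strain AB-Tu) aged 8 to 18 months, amputated under anesthesia. The groups were the uncut fin (0 dpa) and the fin at 2, 3 and 10 dpa, with 3 libraries each, 12 in all, and no other treatment or genotype. Each library pooled 6 fish, and how much tissue on the body side of the cut was taken is unstated. Total counts ran from 8833337 to 22843743 per library, 16612 genes passed the expression filter, and all 144 members were among them. Genes of fin tissues were present at each stage, with summed levels of at least 28576 CPM for the basal epidermal list, 3529 CPM for the osteoblast list and 137 CPM for the endothelial list. The edgeR fit gave a biological coefficient of variation of 26.9%, whose p-values speak to the spread between pools alone, as no label says whether the pools of a stage came from separate cohorts.

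A cut fin first closes its wound with epidermis. Connective tissue and bone-forming cells near the cut then lose part of their mature character, divide and build the blastema. Rays, joints, vessels and nerves regrow with it. Wnt, TGF-beta, BMP, Hedgehog, insulin-like growth factor and retinoic acid signals act in this regrowth, and secreted inhibitors limit several of them. Fin fibroblasts and ligament-like cells make proteoglycans and other matrix proteins that are held in the mature fin and replaced as new rays form. In fins, as in other whole-tissue samples, fewer cells of a type and less RNA per cell cannot be told apart.

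At 2 dpa the members stood at a median of 24.1% of their 0 dpa level, from 1.21% for HPD to 53.8% for FLI1. At 3 dpa the median was 82.9% of the 0 dpa level (23.7% to 220%) and at 10 dpa 134% (52.0% to 370%). The dip ratio had a median of 2.54 and reached 13.9 for BHMT. Among 0, 3 and 10 dpa the highest mean was at 0 dpa for 33 members (22.9%), at 3 dpa for 8 (5.56%) and at 10 dpa for 103 (71.5%), against 32.9%, 42.5% and 24.5% of all tested genes. Every high library lay above every 2 dpa library for 4.51% of the tested genes, and for each member by rule. Just inside the limit of 150 stood PDZRN3 (dip ratio 1.84), SSPN (1.83), SDK1 (1.83), FLI1 (1.82) and bcl11ba (1.82). Just outside stood cxcl18b (1.81), MAP2K1 (1.80), GLI2 (1.80) and a pair of identifiers without a symbol (1.80 and 1.79).

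The 3 libraries of 2 dpa did not dip equally. The median member level was 23.9%, 37.2% and 13.5% of the 0 dpa mean in 2 dpa replicates 1, 2 and 3. Replicate 2 was the highest 2 dpa library for 113 of the 144 members (78.5%), against 50.8% of all tested genes. Replicate 3 was the lowest for 124, a count for which the share of all tested genes is not given. At 3 dpa the median member level was 81.9%, 66.8% and 89.4% in replicates 1, 2 and 3, and replicate 2 was the lowest 3 dpa library for 103 members (71.5%), against 24.97% of all tested genes. Replicate 2 of 2 dpa also stood apart in sums of matrix lists. It was highest for the collagen list, at 73394 CPM against 35875 and 33541 in replicates 1 and 3. For the fibroblast list the sum was 11959.8 CPM, against 5368 and 5718. For the proteoglycan and matrix glycoprotein list it was lowest, at 26953 CPM against 47827 and 49633. Most of that sum came from a fibronectin gene (FN1, values below) that was itself lowest in replicate 2. The sum therefore does not speak for the rest of that list. The part of these lists in the members' levels was not tested. In median member level the uncut and 10 dpa libraries lay closer together. They stood at 98.1%, 95.1% and 103% at 0 dpa and 132%, 125% and 131% at 10 dpa. The list sums of the uncut libraries were not all alike. For the collagen list uncut replicate 3 had 38019.5 CPM, against 18282 and 12174 in replicates 1 and 2. For the fibroblast list it had 7670.0 CPM, against 4272 and 3290. In the proteoglycan and matrix glycoprotein list it lay between the other uncut libraries. Without 2 dpa replicate 2 the same rule chose 143 genes, 93 of them members. With each 2 dpa library left out of the choice in turn, that library lay below all 9 high libraries for 130 of 144 chosen genes (90.3%) for replicate 1, 98 of 143 (68.5%) for replicate 2 and 134 of 144 (93.1%) for replicate 3. Among the 9397 genes with high stage means of at least 5 CPM the shares were 12.7%, 13.7% and 13.1%. The same 9 high libraries took part in the choice, so the higher shares of the chosen genes follow in part from the rule. They describe the left-out library and are no test of the dip.

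**Figure D1:**
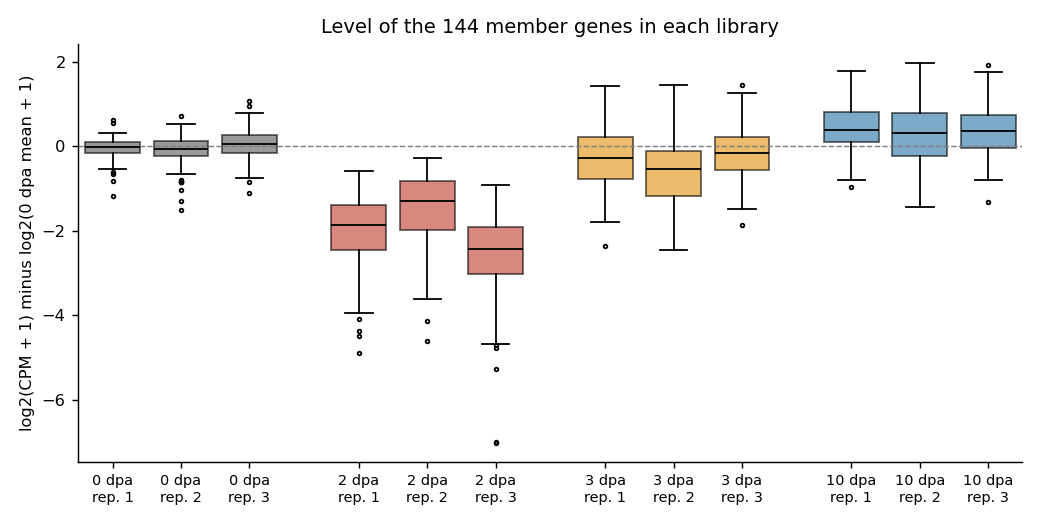
Levels of the 144 members in each of the 12 libraries, as log2(CPM + 1) minus log2(0 dpa mean + 1), with the median as a line, the quartiles as a box, whiskers to 1.5 times the box and single genes beyond as points. The median member level was 23.9%, 37.2% and 13.5% of the 0 dpa mean in the 3 libraries of 2 dpa and at 125% to 132% in those of 10 dpa.

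Enzymes of tyrosine breakdown and the methionine cycle stood among the members with the largest dip ratios, BHMT at 13.9, HGD at 7.70 and HPD at 6.26. Tyrosine is broken down by TAT, HPD, HGD and GSTZ1 in turn, and GCH1 starts the synthesis of the cofactor tetrahydrobiopterin. BHMT (ENSDARG00000013430), which rebuilds methionine from homocysteine, had 369.7, 265 and 269 CPM at 0 dpa, 9.11, 23.5 and 1.33 at 2 dpa, 186, 111 and 215 at 3 dpa and 288, 265 and 240.1 at 10 dpa. Every 2 dpa library lay far under the others, and 3 dpa replicate 2 was the lowest of the high libraries. HPD (ENSDARG00000044935) had 31.1, 28.3 and 38.3 CPM at 0 dpa, 0.493, 0.376 and 0.314 at 2 dpa, 5.56, 5.12 and 12.5 at 3 dpa and 28.4, 56.8 and 32.6 at 10 dpa. Its 3 dpa libraries lay between the others, above every 2 dpa library and below every 0 and 10 dpa library. HPD was lower at 3 dpa than at 0 dpa (log2 change -2.12 ± 0.35, adjusted p = 0.000306, edgeR) and higher at 10 dpa than at 3 dpa (log2 change 2.29 ± 0.35, adjusted p = 0.000660). Leaving out any 1 library kept both adjusted p-values at or under 0.00468.

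HGD (ENSDARG00000058005) had 275, 194 and 194 CPM at 0 dpa, 9.76, 27.6 and 0.706 at 2 dpa, 106, 77.3 and 129.6 at 3 dpa and 153, 195 and 229 at 10 dpa. The level at 2 dpa differed between libraries, lowest in replicate 3, and no 0 dpa library was below a 3 dpa library. At 3 dpa HGD differed from 0 dpa by a log2 change of -1.13 that did not pass (adjusted p = 0.173, edgeR). GSTZ1 averaged 79.3 ± 26.6, 22.1 ± 6.45, 57.3 ± 19.7 and 71.0 ± 21.9 CPM and GCH1 34.3 ± 5.44, 9.94 ± 7.56, 32.0 ± 1.99 and 28.0 ± 3.17 CPM at 0, 2, 3 and 10 dpa (mean ± SD, n = 3 libraries, as in all such values below). For both genes the 3 and 10 dpa means lay near the 0 dpa mean, and no test between any pair of these stages passed.

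The rest of a list of 19 tested enzymes of these pathways and of cofactor synthesis, drawn up after the values were seen and so not tested, did not share one course. The median log2 change of the list at 2 against 0 dpa was -1.95, members included. TAT averaged 48.0 ± 8.16, 0.384 ± 0.265, 2.71 ± 1.50 and 35.6 ± 10.3 CPM in the same order of stages, still low at 3 dpa, and is no member. MAT1A (6.35, 1.67, 2.16 and 6.44 CPM) and SPR (ENSDARG00000004406, 65.9, 16.2, 14.7 and 57.4 CPM) were likewise low at 2 and 3 dpa. DMGDH averaged 4.35, 0.531, 2.31 and 5.33 CPM, partly back at 3 dpa. AHCY averaged 271 ± 77.9, 247 ± 18.9, 241 ± 15.8 and 305 ± 13.4 CPM and SARDH 29.2 ± 5.57, 26.0 ± 6.27, 25.1 ± 4.81 and 33.6 ± 5.22 CPM, with all 4 stage means close to each other. One CTH gene (ENSDARG00000074301) averaged 8.27 ± 0.516, 22.3 ± 5.32, 21.2 ± 5.36 and 8.60 ± 2.103 CPM, higher at 2 and 3 dpa than in the uncut fin.

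**Figure D2:**
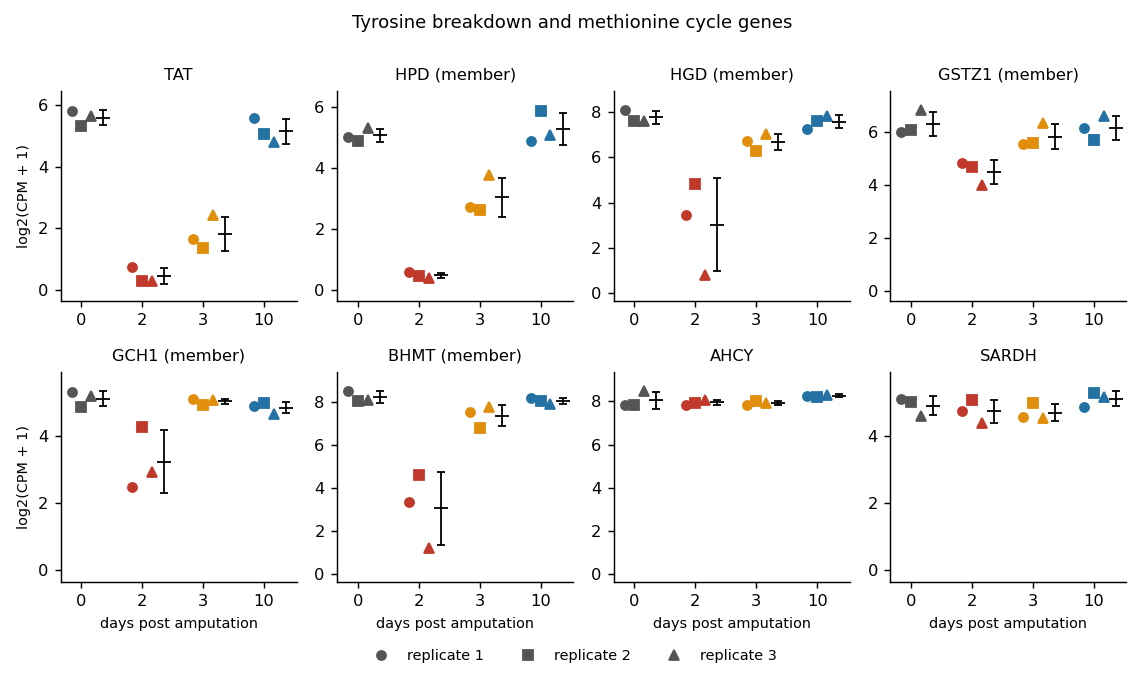
Tyrosine breakdown and methionine cycle genes as log2(CPM + 1) against days post amputation, with 1 symbol shape per replicate and a bar for the mean ± SD of the 3 libraries on that scale. HPD, HGD, GSTZ1, GCH1 and BHMT are members, TAT was low at 2 and 3 dpa, and AHCY stage means ran from 241 to 305 CPM.

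Signalling members included secreted ligands, secreted inhibitors and receptors. Of 46 tested genes of a Wnt list, 6 were members, against 144 of all 16612 tested genes. These 6 were inhibitors and receptors, with no Wnt ligand among them. The secreted Wnt antagonist SFRP2 (ENSDARG00000070050) had 63.6, 50.1 and 76.8 CPM at 0 dpa, 3.74, 7.08 and 2.67 at 2 dpa, 95.6, 38.8 and 75.4 at 3 dpa and 214, 143 and 161 at 10 dpa. The 2 dpa libraries lay under all others, the 3 dpa libraries spanned those of 0 dpa, and every 10 dpa library exceeded every other library. SFRP2 rose at 10 dpa against 0 dpa (log2 change 1.36 ± 0.36, adjusted p = 0.0329, edgeR) and against 3 dpa (log2 change 1.25 ± 0.36, adjusted p = 0.0266). The first call was lost without 0 dpa replicate 1 or 2 or 10 dpa replicate 1 or 3 (adjusted p up to 0.144), the second without 10 dpa replicate 1 or 3 or 3 dpa replicate 2 or 3 (up to 0.0960).

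A pair of identifiers named SFRP1, paralogs whose reads the counting could have split, are given apart. SFRP1 with identifier ENSDARG00000057678 averaged 54.2 ± 1.57, 15.8 ± 10.9, 70.2 ± 4.76 and 70.8 ± 11.5 CPM at 0, 2, 3 and 10 dpa, and its 3 dpa libraries all exceeded those of 0 dpa. SFRP1 with identifier ENSDARG00000035521 averaged 238 ± 25.2, 46.2 ± 13.1, 131 ± 42.6 and 249 ± 59.5 CPM, and was lower at 3 dpa than at 0 dpa (log2 change -0.89 ± 0.32, adjusted p = 0.0344, edgeR). That call was lost without 0 dpa replicate 1 or 2 or 3 dpa replicate 2 (adjusted p up to 0.116). The difference between the paralogs was not tested.

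APCDD1L, named for its likeness to the Wnt inhibitor APCDD1, averaged 12.3 ± 1.13, 3.71 ± 2.21, 18.8 ± 5.28 and 16.6 ± 2.99 CPM in the same order of stages. The Wnt receptor genes FZD7 and FZD9 averaged 57.2 ± 8.48, 13.3 ± 8.26, 37.6 ± 4.35 and 65.5 ± 7.69 CPM and 6.28 ± 0.352, 1.90 ± 1.74, 7.03 ± 1.61 and 14.8 ± 3.45 CPM. None of these 3 genes passed a test among 0, 3 and 10 dpa in pairs. Over the whole Wnt list, 14 of 46 genes were higher and 22 lower at 2 dpa than at 0 dpa (edgeR adjusted p under 0.05). Of all tested genes 22.9% were higher and 24.1% lower. The median log2 change was -0.55 for the list, against 0.03 over all tested genes. Such list values, here and below, include the members, which the rule chose for low 2 dpa levels, and are descriptive.

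The ligand gene TGFB3 (ENSDARG00000019367) had 349, 323 and 425 CPM at 0 dpa, 34.1, 40.4 and 31.6 at 2 dpa, 178, 65.8 and 178 at 3 dpa and 361, 169.6 and 358 at 10 dpa. All 2 dpa libraries were close together and low, and replicate 2 was low at both 3 and 10 dpa. TGFB3 was lower at 3 dpa than at 0 dpa (log2 change -1.40 ± 0.38, adjusted p = 0.00936, edgeR), and this call held without any 1 library (adjusted p up to 0.0292). GDF10, a ligand of the same superfamily, had 4.17, 5.18 and 9.96 CPM at 0 dpa, 0.246, 1.36 and 0 at 2 dpa, 7.69, 7.57 and 16.8 at 3 dpa and 17.2, 25.9 and 22.2 at 10 dpa. Each 10 dpa library exceeded each other library, but the difference from 0 dpa did not pass (log2 change 1.68 ± 0.53, adjusted p = 0.0616). NOG, named for the secreted BMP antagonist noggin, averaged 8.46 ± 1.46, 1.18 ± 1.14, 6.98 ± 2.095 and 8.88 ± 1.85 CPM at 0, 2, 3 and 10 dpa.

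Of 49 tested genes of the TGF-beta and BMP list, 12 were higher and 17 lower at 2 dpa than at 0 dpa. Over all tested genes these shares were 22.9% and 24.1%. The lower count of the list was 11 without 0 dpa replicate 1. Secreted semaphorins, which steer axons and vessels, gave 2 members of 56 tested guidance genes, against 144 of all 16612 tested genes. SEMA3C averaged 10.7 ± 3.60, 0.702 ± 0.270, 7.30 ± 2.45 and 22.1 ± 4.23 CPM and rose at 10 dpa against 3 dpa (log2 change 1.55 ± 0.33, adjusted p = 0.00504, edgeR). The gene sema3aa (ENSDARG00000019235) had 105, 108 and 95.8 CPM at 0 dpa, 10.25, 20.9 and 17.7 at 2 dpa, 47.2, 32.7 and 53.9 at 3 dpa and 100.4, 118 and 126 at 10 dpa. Its 3 dpa libraries formed a step between 2 dpa and the other stages with no overlap on either side. Relative to 3 dpa it was higher at 10 dpa (log2 change 1.31 ± 0.25, adjusted p = 0.00312), and it was lower at 3 dpa than at 0 dpa (log2 change -1.25 ± 0.25, adjusted p = 0.00143). These 3 semaphorin calls held without any 1 library. In the guidance list 24 of 56 genes were higher and 17 lower at 2 dpa than at 0 dpa. Of all tested genes 22.9% were higher and 24.1% lower.

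Insulin-like growth factor gene igf2a averaged 26.8 ± 2.25, 8.86 ± 2.30, 29.7 ± 7.10 and 30.8 ± 1.26 CPM and the Hedgehog-binding inhibitor HHIP 28.6 ± 6.41, 9.74 ± 4.57, 18.7 ± 2.51 and 21.2 ± 1.75 CPM at 0, 2, 3 and 10 dpa. HHIP was lower at 3 dpa than at 0 dpa (log2 change -0.66 ± 0.25, adjusted p = 0.0436, edgeR), a call lost on leaving out any 1 of 9 libraries (adjusted p up to 0.180). Of the 52 tested genes of retinoic acid, FGF, Hedgehog and IGF signalling, 18 were higher and 18 lower at 2 dpa than at 0 dpa. Over all tested genes these shares were 22.9% and 24.1%. CYP2R1, a vitamin D 25-hydroxylase, had 28.4, 30.3 and 45.5 CPM at 0 dpa, 3.55, 5.12 and 0.706 at 2 dpa, 94.4, 38.1 and 96.5 at 3 dpa and 112, 73.6 and 80.1 at 10 dpa. All 3 dpa and 10 dpa values but that of 3 dpa replicate 2 exceeded every 0 dpa value, and neither difference passed (adjusted p = 0.0631 for 3 dpa and 0.0964 for 10 dpa against 0 dpa, edgeR).

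STC2, a secreted glycoprotein hormone gene, had 59.8, 55.2 and 55.6 CPM at 0 dpa, 10.5, 7.68 and 10.6 at 2 dpa, 25.9, 18.6 and 27.0 at 3 dpa and 81.7, 85.8 and 87.9 at 10 dpa. The 4 stages did not overlap, with 2 dpa lowest, then 3 dpa, 0 dpa and 10 dpa. STC2 was lower at 3 dpa than at 0 dpa (log2 change -1.30 ± 0.23, adjusted p = 0.000462, edgeR) and higher at 10 dpa than at 3 dpa (log2 change 1.79 ± 0.23, adjusted p = 0.000179), and both calls held without any 1 library. The difference between 10 and 0 dpa did not pass (log2 change 0.49 ± 0.22, adjusted p = 0.176). Other members for secreted factors or receptors were serpinf1 (209 ± 49.8, 85.7 ± 33.8, 379 ± 133 and 427 ± 88.2 CPM), the heparin-binding growth factor MDK (22.6 ± 5.37, 8.91 ± 2.85, 28.1 ± 9.49 and 18.0 ± 4.54 CPM) and the endothelin receptor EDNRA (27.8 ± 4.19, 13.3 ± 5.65, 36.7 ± 11.6 and 44.5 ± 3.52 CPM). MDK and EDNRA were named here after their values were seen. The 3 dpa means of serpinf1, MDK and EDNRA were at least as high as those of the uncut fin.

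**Figure D3:**
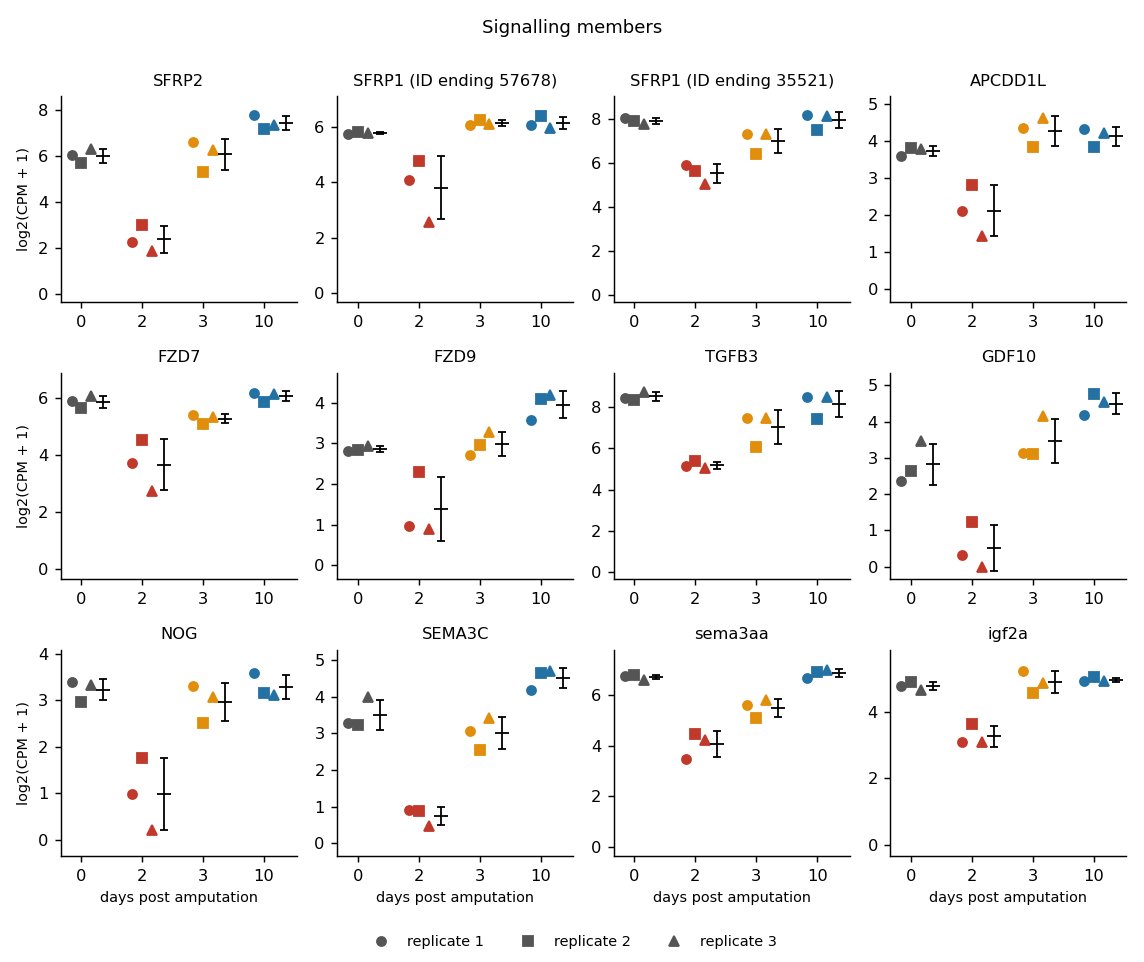
Signalling members as log2(CPM + 1) against days post amputation, with 1 symbol shape per replicate and a bar for the mean ± SD of the 3 libraries on that scale. All 2 dpa points lie under all other points of a gene, TGFB3 and sema3aa are intermediate at 3 dpa, and SFRP2, GDF10 and SEMA3C have their highest points at 10 dpa.

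Matrix proteins of connective tissue, tendon and joint were another group. Lumican (LUM, ENSDARG00000045580), a small leucine-rich proteoglycan that binds collagen fibrils, had 880.4, 884 and 714 CPM at 0 dpa, 146, 163 and 33.5 at 2 dpa, 682, 351 and 635 at 3 dpa and 1875, 1311 and 1367 at 10 dpa. The 2 dpa libraries were lowest, replicate 3 by far, and the 10 dpa libraries exceeded all others. LUM was higher at 10 dpa than at 3 dpa (log2 change 1.40 ± 0.45, adjusted p = 0.0432, edgeR), a call lost on leaving out any 1 library of 0, 3 or 10 dpa (adjusted p up to 0.143). Fibromodulin (FMOD), a related proteoglycan, averaged 79.8 ± 40.8, 9.85 ± 5.27, 34.5 ± 13.8 and 48.6 ± 10.0 CPM at 0, 2, 3 and 10 dpa and was lower at 3 dpa than at 0 dpa (log2 change -1.26 ± 0.46, adjusted p = 0.0368). Without 0 dpa replicate 1 or 2 or 3 dpa replicate 1 or 2 this call was lost (adjusted p up to 0.192). Osteomodulin (OMD), another of the family, averaged 12.5 ± 0.967, 2.68 ± 1.65, 9.87 ± 2.63 and 28.9 ± 14.7 CPM and was higher at 10 dpa than at 3 dpa (log2 change 1.52 ± 0.44, adjusted p = 0.0261), a call lost without 10 dpa replicate 1 or 3 dpa replicate 1 or 2 (log2 change 0.98 to 1.77). The highest mean stood at 10 dpa for LUM and OMD and at 0 dpa for FMOD.

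The gene abi3bpb, named for a matrix protein that binds ABI3, had 728, 638 and 1166 CPM at 0 dpa, 65.6, 137 and 46.2 at 2 dpa, 468, 326 and 692 at 3 dpa and 1166, 1049.6 and 982 at 10 dpa. The values at 3 dpa lay between those of 2 dpa and 10 dpa, and no pair of high stages passed (smallest adjusted p = 0.0610, edgeR, 10 against 3 dpa). Tenascin N (tnn) averaged 78.0 ± 22.9, 16.7 ± 10.25, 39.9 ± 12.6 and 142 ± 35.2 CPM and TGFBI, an integrin-binding matrix protein, 225 ± 25.9, 86.2 ± 55.4, 302 ± 107 and 308 ± 78.5 CPM. Relative to 3 dpa, tnn was higher at 10 dpa (log2 change 1.77 ± 0.36, adjusted p = 0.00391), which held without any 1 library, and it was lower at 3 dpa than at 0 dpa (adjusted p = 0.0315), which did not hold without 0 dpa replicate 1 or 3 or 3 dpa replicate 1 or 2. The matricellular gene CCN4 averaged 37.2 ± 24.0, 8.07 ± 5.04, 30.9 ± 7.72 and 101 ± 11.7 CPM and was higher at 10 dpa than at 3 dpa (log2 change 1.66 ± 0.43, adjusted p = 0.0150), a call lost without 3 dpa replicate 2 (adjusted p = 0.0680). Of 39 tested genes of the proteoglycan and glycoprotein list, 8 were higher and 14 lower at 2 dpa than at 0 dpa. Over all tested genes these shares were 22.9% and 24.1%, and 5 genes of the list were members. The summed level of that list went the other way, with 4236 to 5389.8 CPM at 0 dpa, 26953 to 49633 at 2 dpa, 18099 to 20907 at 3 dpa and 7569 to 9987 at 10 dpa. Most of it at 2 dpa came from a fibronectin gene, FN1 with identifier ENSDARG00000006526, which had 1831, 1119.6 and 1366 CPM at 0 dpa, 40993, 18692 and 42006 at 2 dpa, 12159, 10380.4 and 11027 at 3 dpa and 3235, 2390.0 and 2081 at 10 dpa and is no member. The collagen list had 11 genes higher and 10 lower of 39 tested at 2 dpa against 0 dpa. Its summed level was 12174 to 38019.5 CPM at 0 dpa, 33541 to 73394 at 2 dpa, 83275 to 91189 at 3 dpa and 73030.2 to 90147 at 10 dpa. In the fibroblast list, of which LUM was the one member, the sum was 3289.6 to 7670.0 CPM at 0 dpa, 5368 to 11959.8 at 2 dpa, 12676 to 16194 at 3 dpa and 14052 to 19090.2 at 10 dpa. Of its 23 tested genes 3 were higher and 8 lower at 2 dpa than at 0 dpa. The shares of all tested genes, 22.9% higher and 24.1% lower, stand beside both the collagen and the fibroblast counts. The matrix members were low at 2 dpa against all other stages. The collagen and fibroblast sums at 2 dpa overlapped those of 0 dpa and lay below every 3 dpa library. The proteoglycan and glycoprotein sum was highest at 2 dpa. Neither the collagen list nor the list of elastic fibres and lysyl oxidases (22 tested) held a member, LOXL1 having been left out by rule. The collagen-like member col7a1l stood on the basal epidermal list.

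Of 19 tested genes with an MMP symbol, for matrix metalloproteinases, 2 were members, as was RECK of 3 tested inhibitor genes (TIMP symbols and RECK). Over all tested genes 144 of 16612 were members. The MMP and inhibitor families were counted after the values were seen. The metalloproteinase MMP11 averaged 65.1 ± 54.2, 11.8 ± 4.09, 66.9 ± 14.8 and 186 ± 31.9 CPM, with 1 of the 3 uncut libraries (replicate 3, 127 CPM) above every 3 dpa library. Its rise at 10 dpa against 3 dpa (log2 change 1.43 ± 0.45, adjusted p = 0.0385, edgeR) was lost on leaving out any 1 library of 3 or 10 dpa (adjusted p up to 0.130). MMP17, a membrane-bound metalloproteinase, averaged 16.0 ± 5.67, 3.21 ± 2.01, 15.0 ± 5.74 and 19.1 ± 3.82 CPM and RECK, a membrane inhibitor of such enzymes, 24.0 ± 1.96, 11.2 ± 4.91, 26.9 ± 3.75 and 25.6 ± 5.47 CPM, with no difference among 0, 3 and 10 dpa that passed in pairs. The crosslinking enzyme gene TGM2 averaged 22.1 ± 0.334, 3.90 ± 3.86, 28.9 ± 5.04 and 46.8 ± 6.55 CPM. The intermediate filament gene VIM averaged 53.0 ± 20.8, 10.1 ± 5.59, 55.0 ± 27.0 and 44.0 ± 9.79 CPM, and its 0 and 3 dpa libraries overlapped.

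Tendon, ligament and joint genes gave 4 members of 24 tested, against 144 of all 16612 tested genes. Tenomodulin (TNMD), a marker of mature tendon and ligament cells, had 29.7, 17.0 and 62.3 CPM at 0 dpa, 2.96, 15.06 and 2.67 at 2 dpa, 24.3, 21.8 and 30.8 at 3 dpa and 77.2, 84.2 and 93.7 at 10 dpa. Within 2 dpa, replicate 2 stood apart from the other 2 libraries and just under the lowest 0 dpa library. TNMD was higher at 10 dpa than at 3 dpa (log2 change 1.69 ± 0.53, adjusted p = 0.0372, edgeR). MKX, the tendon transcription factor mohawk, averaged 9.28 ± 4.54, 1.02 ± 1.098, 6.07 ± 2.73 and 22.2 ± 1.25 CPM and was also higher at 10 dpa than at 3 dpa (log2 change 1.83 ± 0.58, adjusted p = 0.0396). The TNMD call was lost on leaving out any 1 library of 3 or 10 dpa or 0 dpa replicate 1 (adjusted p up to 0.133), and the MKX call without 0 dpa replicate 1, any 10 dpa library or 3 dpa replicate 1 or 2 (up to 0.141). CILP, a cartilage intermediate layer protein gene, averaged 39.3 ± 23.8, 5.71 ± 7.15, 20.5 ± 0.957 and 60.4 ± 9.99 CPM, and its 10 against 3 dpa difference did not pass (adjusted p = 0.117). Uncut replicate 3 was the highest 0 dpa library for TNMD, MKX and CILP and the lowest for FMOD. In the list of 24 genes 5 were higher and 13 lower at 2 dpa than at 0 dpa. Over all tested genes these shares were 22.9% and 24.1%. The summed level of the list was 1823 to 2174 CPM at 0 dpa and 841 to 1296 at 2 dpa. At 3 dpa it was 1527 to 1752 CPM and at 10 dpa 1724 to 2171. Of this list gdf6b was at 0 in every 2 dpa library, and its levels at other stages are not given here. The part of these cells in the members' levels was not tested.

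Vessel genes were the next group. The VEGF receptor gene KDR (ENSDARG00000017321) had 38.9, 31.5 and 31.8 CPM at 0 dpa, 8.62, 18.6 and 4.94 at 2 dpa, 34.4, 26.5 and 29.2 at 3 dpa and 50.7, 48.9 and 39.3 at 10 dpa. The libraries of 0 and 3 dpa overlapped, those of 2 dpa lay below, and those of 10 dpa lay above. The endothelial transcription factor genes FLI1 and SOX7 averaged 43.2 ± 2.67, 23.2 ± 9.33, 66.6 ± 14.1 and 67.4 ± 11.1 CPM and 24.7 ± 2.74, 7.00 ± 1.76, 13.7 ± 2.98 and 23.1 ± 6.61 CPM at 0, 2, 3 and 10 dpa. FLI1 was not below its uncut level at 3 dpa (log2 change 0.58, adjusted p = 0.116, edgeR), whereas SOX7 was lower (log2 change -0.90 ± 0.29, adjusted p = 0.0231), a call lost without 0 dpa replicate 1 or 3 dpa replicate 2. The junction gene pecam1a averaged 15.0 ± 3.33, 7.70 ± 4.55, 16.5 ± 0.927 and 24.7 ± 3.22 CPM, and its 2 dpa replicate 2 (11.0 CPM) stood next to the lowest 0 dpa library (11.8 CPM). The endothelial phosphatase gene ptprb averaged 10.1 ± 1.82, 2.25 ± 1.78, 6.47 ± 1.11 and 13.3 ± 0.700 CPM. Of 28 tested genes of the endothelial list 3 were higher and 15 lower at 2 dpa than at 0 dpa. Over all tested genes these shares were 22.9% and 24.1%. The summed level of that list was 454 to 533 CPM at 0 dpa, 137 to 340.1 at 2 dpa, 423 to 538 at 3 dpa and 591 to 744 at 10 dpa, with none of its genes at 0 throughout 2 dpa. The part of endothelial cell number in the members' levels was not tested.

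Of 18 tested pericyte and vascular smooth muscle genes, 2 were higher and 11 lower at 2 dpa than at 0 dpa. Over all tested genes these shares were 22.9% and 24.1%. Of the 18 genes 3 were members, low at 2 dpa by rule, against 144 of all 16612 tested genes. RGS5, a regulator of G protein signalling used as a pericyte marker, had 22.7, 17.3 and 21.7 CPM at 0 dpa, 2.32, 3.61 and 2.28 at 2 dpa, 5.56, 6.39 and 12.7 at 3 dpa and 22.7, 26.1 and 41.6 at 10 dpa. Its 3 dpa libraries lay above those of 2 dpa and below those of 0 dpa, with no overlap. RGS5 was lower at 3 dpa than at 0 dpa (log2 change -1.38 ± 0.33, adjusted p = 0.00406, edgeR) and higher at 10 dpa than at 3 dpa (log2 change 1.83 ± 0.33, adjusted p = 0.00202), and both calls held without any 1 library. The contractile genes TAGLN and MYLK averaged 22.9 ± 5.74, 7.10 ± 4.18, 23.5 ± 3.37 and 37.8 ± 5.53 CPM and 9.49 ± 3.45, 2.81 ± 1.95, 8.19 ± 1.59 and 20.8 ± 1.02 CPM, and their 3 dpa means were close to those of 0 dpa. The summed level of the pericyte and smooth muscle list was 1100.0 to 1213 CPM at 0 dpa, 718 to 791 at 2 dpa, 601 to 744 at 3 dpa and 1063 to 1198 at 10 dpa. At 3 dpa every library was below every 0 dpa library in that sum, in contrast to TAGLN and MYLK, whose 0 and 3 dpa libraries overlapped.

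**Figure D4:**
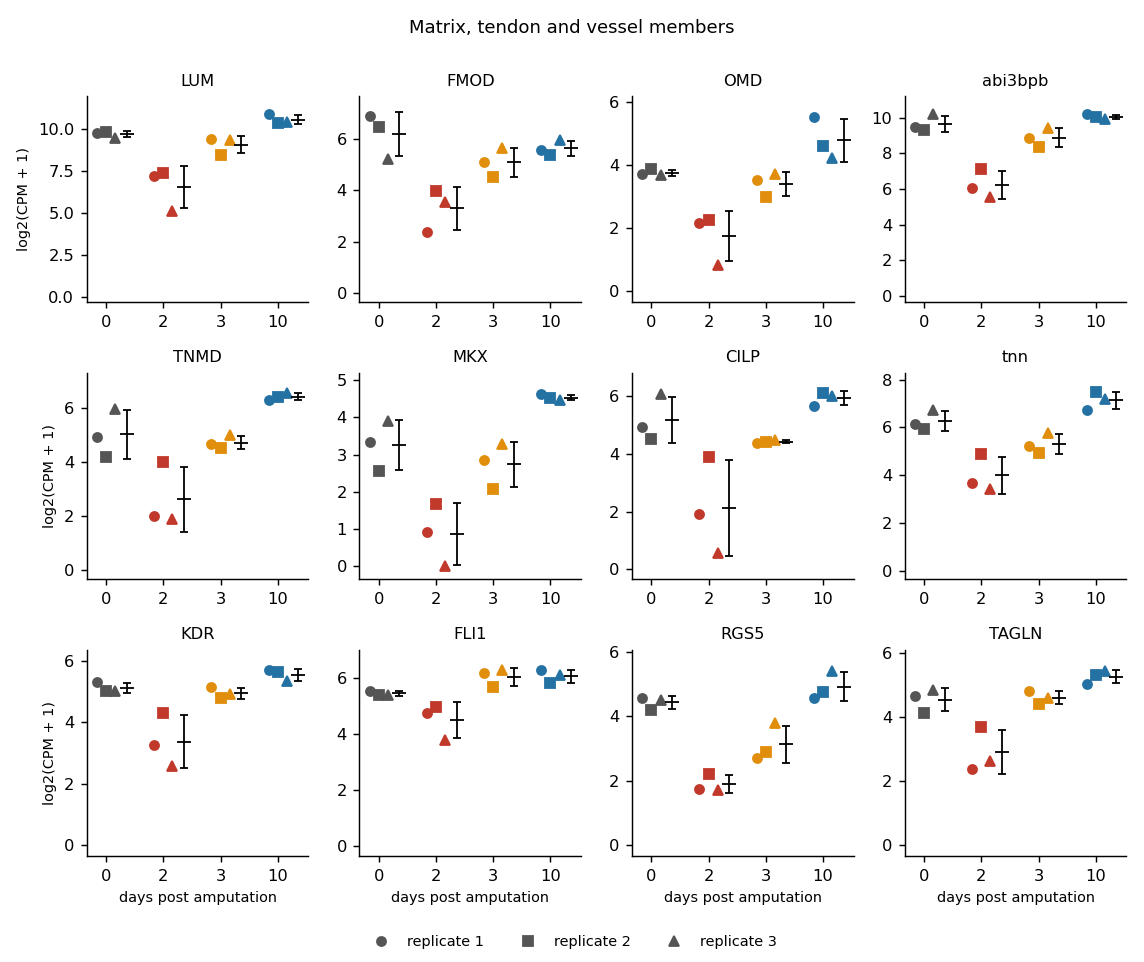
Matrix, tendon and vessel members as log2(CPM + 1) against days post amputation, with 1 symbol shape per replicate and a bar for the mean ± SD of the 3 libraries on that scale. The 2 dpa points are lowest for each gene, RGS5 and tnn stay lower at 3 dpa than at 10 dpa, and KDR, FLI1 and TAGLN are near or above their 0 dpa level at 3 dpa.

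Regulators of transcription formed a further group, picked after their values were seen except where a list held them. JUN, an immediate early gene, had 642, 918 and 449 CPM at 0 dpa, 163, 104 and 104 at 2 dpa, 295, 205 and 506 at 3 dpa and 776, 512 and 635 at 10 dpa. The lowest 3 dpa library was replicate 2, and replicate 3 overlapped the uncut libraries. JUN was lower at 3 dpa than at 0 dpa (log2 change -1.03 ± 0.37, adjusted p = 0.0362, edgeR), as was OSR1, which marks connective tissue precursors in mouse limbs (log2 change -1.03 ± 0.35, adjusted p = 0.0278). Both calls were lost without 0 dpa replicate 1 or 2 or 3 dpa replicate 1 or 2 (adjusted p up to 0.153 for JUN and 0.146 for OSR1). KLF15 averaged 36.8 ± 9.39, 4.63 ± 1.29, 12.9 ± 3.09 and 28.9 ± 3.89 CPM at 0, 2, 3 and 10 dpa and was lower at 3 dpa than at 0 dpa (log2 change -1.57 ± 0.28, adjusted p = 0.000634). TBX2 averaged 13.2 ± 1.00, 2.57 ± 0.530, 6.14 ± 1.34 and 13.3 ± 3.90 CPM and was likewise lower at 3 dpa (log2 change -1.16 ± 0.29, adjusted p = 0.00503), and for both KLF15 and TBX2 this held without any 1 library. Of 35 tested immediate early genes 4 were higher and 15 lower at 2 dpa than at 0 dpa. Over all tested genes these shares were 22.9% and 24.1%.

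By contrast, foxd1 averaged 31.8 ± 3.48, 13.4 ± 6.60, 43.4 ± 8.98 and 58.2 ± 5.04 CPM and LHX9 25.5 ± 0.819, 8.73 ± 3.29, 30.9 ± 13.4 and 31.2 ± 15.08 CPM, with 3 dpa means above those of the uncut fin and no call among 0, 3 and 10 dpa in pairs. The LIM-domain genes FHL1 and FHL2 averaged 19.6 ± 9.42, 1.104 ± 0.0232, 6.89 ± 3.39 and 12.1 ± 1.95 CPM and 16.9 ± 3.39, 2.28 ± 0.838, 7.50 ± 2.47 and 13.1 ± 3.82 CPM. Both were lower at 3 dpa than at 0 dpa (FHL1, log2 change -1.59 ± 0.39, adjusted p = 0.00450; FHL2, log2 change -1.24 ± 0.35, adjusted p = 0.0103, edgeR), and the FHL2 call was lost without 0 dpa replicate 1 (adjusted p = 0.0520). Leaving out single libraries kept the FHL1 call and moved its log2 change between -2.11 and -1.06, and uncut replicate 1 (30.4 CPM) stood above the other 2 (13.6 and 14.7 CPM). The nuclear factor gene NFIA averaged 98.3 ± 12.98, 29.9 ± 5.44, 55.8 ± 12.6 and 91.8 ± 15.104 CPM and was lower at 3 dpa (log2 change -0.86 ± 0.26, adjusted p = 0.0153), a call lost without 0 dpa replicate 2 or 3 dpa replicate 2.

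Further members were tied to nerve, epidermis, blood and muscle. Their counts per list, here and below, stand against 144 members of all 16612 tested genes. Of 22 tested glial and nerve genes NCAM1, a cell adhesion gene, was the one member. Of the 22, 1 was higher and 15 lower at 2 dpa than at 0 dpa, against 22.9% and 24.1% of all tested genes. At 3 dpa 3 were higher and 13 lower than at 0 dpa, against 22.8% and 21.3%. The list summed to 502 to 522 CPM at 0 dpa and 194 to 214 at 2 dpa. At 3 dpa the sum was 205 to 254 CPM and at 10 dpa 451 to 492. That sum stayed low at 3 dpa, in contrast to NCAM1. NCAM1 averaged 20.5 ± 6.45, 7.72 ± 1.40, 24.1 ± 4.75 and 41.2 ± 4.75 CPM and was higher at 10 dpa than at 0 dpa (log2 change 0.92 ± 0.24, adjusted p = 0.0320, edgeR), a call lost on leaving out any 1 library of 10 dpa or 0 dpa replicate 1 or 2 (adjusted p up to 0.144). The membrane glycoprotein genes GPM6A and GPM6B, common in neurons and glia, averaged 38.9 ± 9.33, 3.87 ± 2.01, 13.2 ± 4.08 and 42.4 ± 14.3 CPM and 35.5 ± 2.63, 10.9 ± 8.06, 29.8 ± 4.83 and 51.8 ± 12.6 CPM. GPM6A was lower at 3 dpa than at 0 dpa (log2 change -1.62 ± 0.40, adjusted p = 0.00479) and higher at 10 dpa than at 3 dpa (log2 change 1.65 ± 0.40, adjusted p = 0.0106), and both calls held without any 1 library.

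Basement membrane genes lamb4, a laminin chain, and col7a1l, named for the anchoring fibril collagen, were members of 21 tested basal epidermal genes. The gene lamb4 had 26.7, 28.7 and 35.8 CPM at 0 dpa, 5.42, 6.55 and 7.38 at 2 dpa, 13.1, 10.4 and 20.9 at 3 dpa and 43.4, 53.1 and 57.2 at 10 dpa. Its stages did not overlap and ran upward from 2 dpa to 3 dpa, 0 dpa and 10 dpa. At 3 dpa lamb4 was lower than at 0 dpa (log2 change -1.08 ± 0.26, adjusted p = 0.00443, edgeR), and at 10 dpa higher than at 3 dpa (log2 change 1.74 ± 0.26, adjusted p = 0.000616), in each case without any 1 library too. The gene col7a1l averaged 13.1 ± 4.30, 2.54 ± 2.06, 7.00 ± 0.709 and 18.9 ± 7.08 CPM. The summed level of the basal epidermal list was 68248 to 80651 CPM at 0 dpa, 42188 to 57820.3 at 2 dpa, 28576 to 35814 at 3 dpa and 54083 to 72527 at 10 dpa, lowest at 3 dpa. The complement gene c7a averaged 27.9 ± 6.95, 7.14 ± 2.83, 26.2 ± 0.262 and 49.2 ± 13.8 CPM, the coagulation factor XIII gene f13a1b 196 ± 49.1, 98.3 ± 40.6, 254 ± 97.7 and 336 ± 67.3 CPM and the interferon-induced membrane protein gene ifitm1 29.3 ± 2.07, 2.48 ± 2.01, 16.9 ± 7.82 and 31.2 ± 5.49 CPM. Of 8 tested complement genes c7a was the one member, and 0 were higher and 7 lower at 2 dpa than at 0 dpa. Of 12 tested erythrocyte and thrombocyte genes f13a1b was the one member, and 3 were higher and 2 lower. Over all tested genes these shares were 22.9% and 24.1%.

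The muscle creatine kinase gene ckma averaged 6.91 ± 7.50, 0.845 ± 0.658, 5.69 ± 1.21 and 12.3 ± 8.79 CPM, with uncut libraries from 1.78 to 15.5 CPM. It was the one member among 9 tested skeletal muscle genes. Summed over all 20 identifiers of that list, tested or not, the level was 148 to 157 CPM at 0 dpa and 92.7 to 123 at 2 dpa. At 3 dpa it was 110.4 to 162 CPM and at 10 dpa 139 to 175. The genes pvalb1 and pvalb2 were at 0 in every 2 dpa library, and their levels at other stages are not given here. No member stood on the lists of pigment cells, macrophages, neutrophils, lymphocytes, osteoblasts, osteoclasts, superficial epidermis, goblet cells and ionocytes, Notch signalling, the circadian clock or lipid handling. This does not mean that genes of these lists kept their uncut level at 2 dpa. Of 25 tested pigment cell genes 21 were lower and 2 higher at 2 than at 0 dpa, and 17 lower at 3 dpa. For 15 lymphocyte genes these counts were 11, 2 and 10, and for 35 clock genes 24, 1 and 22. Of 26 macrophage and dendritic cell genes 7 were higher and 4 lower at 2 dpa. Over all tested genes 22.9% were higher and 24.1% lower at 2 dpa, and 21.3% lower at 3 dpa. MEGF10, an engulfment receptor, averaged 14.0 ± 3.50, 1.51 ± 1.31, 15.6 ± 3.62 and 27.1 ± 5.38 CPM at 0, 2, 3 and 10 dpa.

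The return was tested over all 144 members. All tested genes were not chosen for low 2 dpa levels, so their shares, here and below, are a background and not a like set. Shares of called genes are those of the main fit. Counts at an unadjusted p, by DESeq2, in limited fits or without a library have no such share beside them. They cannot be read as an excess of the members over all genes. At 3 dpa against 0 dpa 33 members were lower and 0 higher at an adjusted p under 0.05 (edgeR), against 21.3% lower and 22.8% higher of all tested genes, so the share lower (22.9%) was near that of all genes. At an unadjusted p under 0.05, 43 were lower and 2 higher, and DESeq2 called 42 lower and 0 higher. The median log2 change of the members was -0.31, against 0.05 over all tested genes. For 46 members every 3 dpa library lay below every 0 dpa library, and for 8 every one lay above (31.9% and 5.56%, against 25.2% and 30.9% of all tested genes). For 23 the 3 dpa mean was under 50% of the 0 dpa mean, so for these the low level was not confined to 2 dpa. The share of all tested genes under that limit is not given, so the count of 23 shows no excess or lack in the members. Without 3 dpa replicate 2, the lowest 3 dpa library for most members, 17 were lower and 3 higher. Leaving out 0 dpa replicate 1 gave 22 lower, any other 1 library gave 24 to 43 lower, and the count of higher members was 2 without 0 dpa replicate 3 and 1 without 2 dpa replicate 3.

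Of the 33 members lower at 3 dpa, 15 were called whichever library was left out. They were HPD, TGFB3, FHL1, SCUBE1, GPM6A, sema3aa, CRISPLD2, KLF15, RGS5, STC2, AK4, lamb4, TBX2, znf219 and ENSDARG00000022251. Log2 changes among them ran from -0.98 for AK4, an adenylate kinase gene, to -2.12 for HPD. SCUBE1, a secreted and surface protein gene, averaged 15.5 ± 3.26, 1.37 ± 0.728, 6.09 ± 1.84 and 11.2 ± 2.34 CPM at 0, 2, 3 and 10 dpa, and CRISPLD2, a secreted protein gene, 69.1 ± 26.5, 12.3 ± 4.85, 33.4 ± 3.39 and 52.9 ± 6.66 CPM. The zinc finger gene znf219 averaged 16.0 ± 0.399, 2.58 ± 0.141, 5.71 ± 3.41 and 9.71 ± 0.686 CPM, and its log2 change of -1.53 reached -2.17 on leaving out the 3 dpa library that stood highest, replicate 3 (9.64 CPM).

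At 10 dpa against 0 dpa 6 members were higher and 0 lower (edgeR), against 6.62% and 2.78% of all tested genes. At an unadjusted p under 0.05, 35 were higher and 4 lower, DESeq2 called 13 higher and 0 lower, and an edgeR fit of these 2 stages alone 31 higher and 1 lower. The median log2 change of the members was 0.33, against 0.04 over all tested genes. For 69 members every 10 dpa library exceeded every 0 dpa library, and for 6 every one lay below (47.9% and 4.17%, against 22.4% and 11.4% of all tested genes). The 6 higher members were SFRP2, NCAM1, the formyl peptide receptor gene fpr1 (log2 change 1.25 ± 0.35, adjusted p = 0.0376) and 3 identifiers without a symbol. This count rested on single libraries, with 0 members without 0 dpa replicate 1 or 2, 1 without any of the 10 dpa libraries, 12 without 0 dpa replicate 3, 13 without 2 dpa replicate 3 and 20 without 2 dpa replicate 2. None of the 6 was called whichever library was left out.

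At 10 dpa against 3 dpa 39 members were higher and 0 lower (edgeR), 27.1% of the members against 11.3% higher and 8.25% lower of all tested genes. At an unadjusted p under 0.05, 67 were higher and 1 lower, DESeq2 called 49 higher and 0 lower, and an edgeR fit of these 2 stages alone 60 higher and 0 lower. The median log2 change was 0.72, against -0.02 over all tested genes, and for 83 members (57.6%) every 10 dpa library exceeded every 3 dpa library, against 20.6% of all tested genes. The count was 16 without 3 dpa replicate 2, 24 without 10 dpa replicate 1 and 23 without 10 dpa replicate 3, and 0 were lower in each. Called whichever library was left out were 15 members, among them HPD (2.29), ENSDARG00000095580 (1.91), RGS5 (1.83), STC2 (1.79), tnn (1.77), lamb4 (1.74), GPM6A (1.65), SEMA3C (1.55) and sema3aa (1.31), with log2 changes in brackets. Over 0, 3 and 10 dpa together 52 of 144 members differed (36.1%), against 40.0% of all tested genes. In a fit of these 3 stages alone 82 did, and in the fit of all stages 32 did without 3 dpa replicate 2 and 34 without 10 dpa replicate 3. By the pairs against 0 dpa, 106 members passed at neither stage, 32 were lower at 3 dpa without a call at 10 dpa, 5 higher at 10 dpa without a call at 3 dpa and 1 both.

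**Figure D5:**
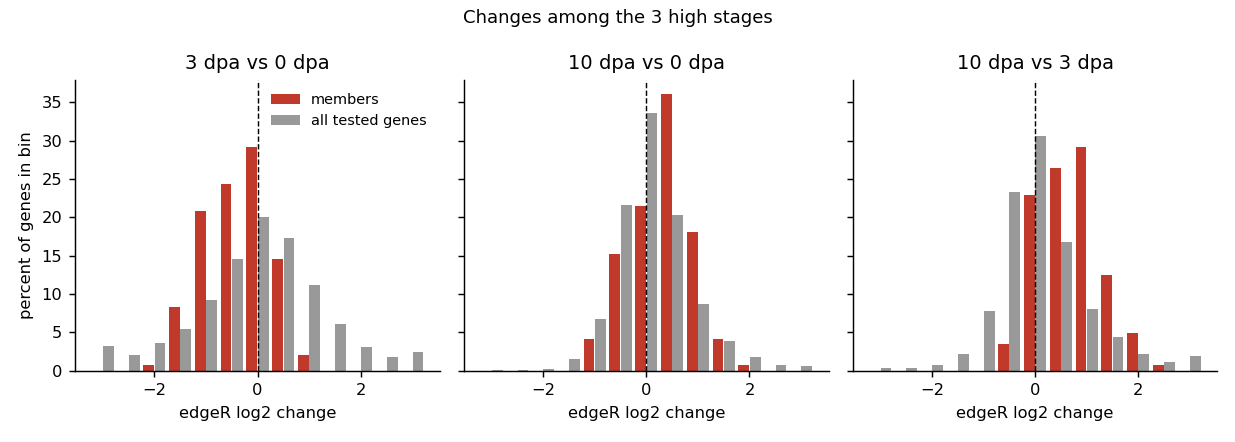
Percent of the 144 members (red) and of all 16612 tested genes (grey) by edgeR log2 change, in bins 0.5 wide with changes beyond the outermost bins counted in them, for 3 against 0 dpa, 10 against 0 dpa and 10 against 3 dpa. The medians of the members were -0.31, 0.33 and 0.72, against 0.05, 0.04 and -0.02 for all tested genes.

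Of the 144 members 124 had a symbol and 20 did not. Capital symbols, taken over from the human gene, name no single zebrafish paralog and stood for 86, and 29 shared their symbol with another identifier. For such paralogs, and for genes that overlap or lie antisense to another, the split of reads is uncertain, since neither the counting program nor its use of strand is stated in the labels or headers. ENSDARG00000095580, a member with a clone-based symbol and no role given here, averaged 145 ± 14.2, 5.88 ± 2.72, 63.4 ± 32.9 and 247 ± 12.8 CPM at 0, 2, 3 and 10 dpa. Left out by rule although among the 150 were LOXL1 (dip ratio 5.39), POSTN (4.83), CXCL12 (3.10), sox18 (3.04), CYP26B1 (2.24) and plvapb (2.14). The counts of members given for the gene lists do not include these genes.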

How the data were processed

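Polyadenylated RNA of 12 caudal fin libraries, 3 for each of 4 stages, was sequenced on a SOLiD Wildfire instrument after extraction with a Macherey-Nagel kit without carrier RNA and library preparation with Lexogen's SENSE mRNA-Seq kit, per the labels' protocols. The authors deposited raw counts per Ensembl gene identifier, 1 column per library, with columns named after alignment files per the file headers. Aligner, counting program, genome build and use of strand stand unnamed, that is, not given in the sources used here. Columns were matched to samples by the name quoted in the labels. Symbols for 21939 of 33737 identifiers came from a table of gene names.

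Members were found on CPM by column total. Counts were fitted with edgeR 4.0.16 in R 4.3.3 (TMM factors, genes kept by filterByExpr with min.count 10, robust quasi-likelihood test, stage as the only term, all 12 libraries in 1 fit), and p-values were Benjamini-Hochberg adjusted over 16612 genes. Tables were joined in Python 3.11.15 with pandas 2.3.3. Between scaling by column totals and by TMM the median change of all genes moved by 0.096 at most on the log2 scale (0.096, 0.05, 0.07 and 0.03 for 2 against 0, 3 against 0, 10 against 0 and 10 against 3 dpa).

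The members and the 30 gene lists were chosen with earlier results of these data known, and a further list of amino acid enzymes after their values were seen (not all of it is printed). Lists are described by counts and medians, without a set test. Genes named were the 20 members of largest dip ratio, up to 3 members per list, the 5 largest called changes each way per comparison, the 5 members and 5 other genes next to the limit, the 5 members of highest mean CPM over the high stages and the genes left out by rule. Not all are printed, and members named beyond these were chosen after their values were seen. Alternatives were a fit limited to the compared stages, DESeq2 1.42.0, RLE factors, all genes without the expression filter, the replicate number as a block, each library left out in turn, and other constants, scalings and orders in the rule. Leaving out the 4 libraries numbered 2 was added after seeing the data.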

Additional observations from a re-analysis of the deposited data

How the results depend on the processing

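Among 0, 3 and 10 dpa 52 members differed, against 82 in a fit of these stages alone, 34 without the 4 libraries numbered 2 and 32 to 68 on leaving out 1 library. At 3 against 0 dpa 33 were called, 0 of them higher, with 1 higher in a fit of these stages alone and 4 higher and 21 lower without the libraries numbered 2. Leaving out 1 library gave 20 to 44 in all, 0 to 3 higher and 17 to 43 lower. At 10 against 0 dpa 6 were called, against 13 by DESeq2, all higher, and 32 in a fit of these stages alone, 31 higher and 1 lower. Leaving out 1 library gave 0 to 20 in all, 0 to 20 higher and 0 to 1 lower. At 10 against 3 dpa 39 were higher, against 60 in a fit of these stages alone, 23 without the libraries numbered 2 and 16 to 54 on leaving out 1 library, with 0 lower in each. The rule kept 93 to 141 of the members on leaving out 1 library, 91 without those numbered 2, 129 with TMM scaling, 138 and 122 with added constants of 0.5 and 5 CPM, and all 144 with the listed symbols dropped first. The median dip ratio ran from 2.18 to 3.17 on leaving out a 2 dpa library. Of 41 changes of named genes, 18 passed under every alternative and 0 reversed. Apart from fewer samples in those that leave libraries out, the cause of these shifts was not tested. Calls over all tested genes under the alternatives are not given, so these counts show no excess of the members over all genes. Mean levels of the members at 2 dpa ran from 0.302 to 132 CPM with a median of 6.47, so counting error weighs most on the lowest, and 3 libraries per stage limit each comparison. Promoter motifs were not run.

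Whether replicate numbers pair libraries is not stated in the labels, although a further field of the sample names follows the number. Across genes, deviations from stage means correlated with a median r of 0.119 in the 18 pairs of libraries with 1 number (range -0.225 to 0.478, with 11 over 0.1) and of -0.0442 in the 36 other pairs (4 over 0.1). For 9 of 12 libraries the closest library of another stage had the same number, a hint from the data and not from the design. Because not every pair with 1 number exceeded 0.1, the number was not used as a block in the fit reported. A replicate block gave 14 calls at 10 against 0 dpa, 13 higher and 1 lower, 39 at 3 against 0 dpa, 44 at 10 against 3 dpa and 54 among the 3 stages. Of all 78 pairwise calls of members, 3 did not pass with the block, those of FMOD at 3 against 0 dpa (adjusted p = 0.0655, edgeR) and of TNMD and MKX at 10 against 3 dpa (0.0682 and 0.0503).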
